A study of Rattus norvegicus with 6 samples.

Results

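The 8 genes described here set the supply of phosphate, pyrophosphate and citrate around mineralizing cells or act on that supply: Phex, Smpd3, Alpl, Enpp1, Ankh, Slc20a1, Slc20a2 and Slc13a5. They were taken as the probes whose RefSeq accession, with the version removed, names 1 of these rat genes. All 8 were found, on 10 of the 41012 gene probes of the array, and all 8 could be tested, among 21847 tested genes and unnamed probes. The cells were bone marrow cells of male rats aged 8 weeks, kept in osteogenic culture and taken on day 10. The LIPUS group received low-intensity pulsed ultrasound, bursts of sound waves used as a mechanical stimulus, and the control group received no treatment. Each group had 3 samples, each on its own single-colour array. The ultrasound settings are not stated in the labels, and neither is whether replicates came from separate animals or cultures, so p-values measure only the spread between these samples, which may be technical.

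Bone mineral is built from calcium and phosphate. Pyrophosphate, a pair of joined phosphates, coats growing crystals and stops them, so the balance between enzymes that make it, transporters that release it and the phosphatase that splits it sets where mineral forms. Phosphate enters cells through sodium-driven transporters, citrate is bound into bone mineral, and a lipase of the cell membrane and an endopeptidase of osteoblasts and osteocytes are each needed for normal mineral, as mutant mice show.

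Of the 8 genes, 3 rose in LIPUS (Smpd3, Phex and Slc13a5), 0 fell and 5 did not pass, at a limma adjusted p under 0.05 over the whole array. Over all tested genes and probes, 6.63% were called, 2.89% higher and 3.74% lower in LIPUS. At an unadjusted p under 0.05, 22.1% of everything tested passed, and the same 3 of the 8 genes. The median log2 change of the 8 genes was 0.31, against 0.03 over everything tested. Levels are given on a log2 scale on which each array's 75th percentile of gene probes is 0, and changes are LIPUS minus control. The 2 groups did not overlap for 6 of the 8 genes on that scale, each time with LIPUS higher, where 27.2% of all tested genes and probes had groups apart and 14.4% had them apart in that direction. On the brightness as scanned, before any scaling, the groups stayed apart for 3 of the 8, the same genes that were called, where 27.3% of everything tested had groups apart and 3.28% had LIPUS higher.

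**Figure D1:**
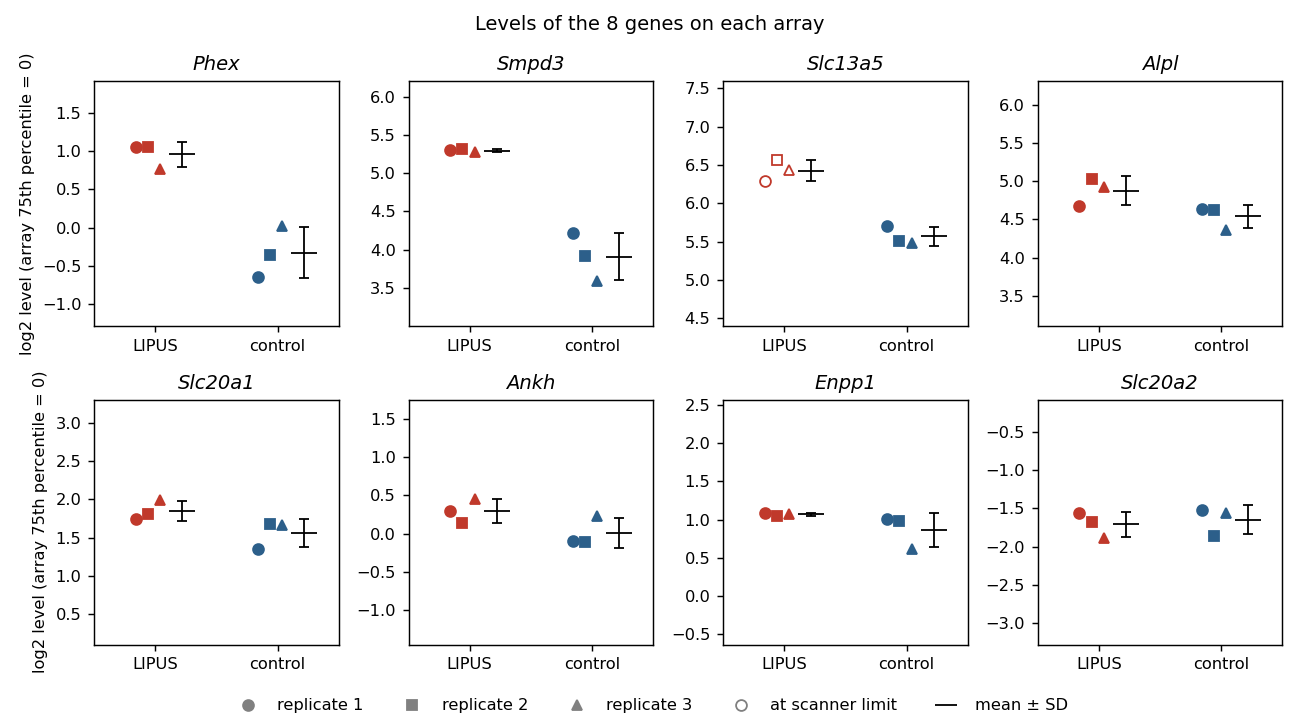
Level of each of the 8 genes on every array, on the log2 scale with the array's 75th percentile at 0 (vertical axes of equal span, 3 LIPUS arrays left and 3 control arrays right; black bars are mean ± SD, open symbols are spots at the scanner limit). Smpd3, Phex and Slc13a5 lie clearly apart between the groups, while Ankh and Slc20a2 overlap.

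Smpd3 (NM_053605) encodes neutral sphingomyelinase 2, which cuts sphingomyelin into ceramide and phosphocholine and whose loss in mice gives brittle, poorly mineralized bone. Its spot brightness was 32913, 27605 and 29260 scanner units on LIPUS arrays 1 to 3, against 17218, 11338 and 12545 on control arrays 1 to 3. The dimmest LIPUS spot was brighter than the brightest control spot. After scaling, its log2 level was 5.30, 5.32 and 5.27 in LIPUS, against 4.22, 3.92 and 3.60 in control. The LIPUS arrays lay almost on top of each other (5.30 ± 0.03, SD, n = 3), and the control arrays spread over a wider range (3.91 ± 0.31, SD, n = 3). The rise was 1.39 ± 0.19 (SE) in log2, or 2.61-fold with a 95% interval of 1.95 to 3.49 (limma adjusted p = 0.00298). In the authors' value table its rise was 1.27 ± 0.21 (adjusted p = 0.0347).

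Phex (NM_013004) encodes a zinc endopeptidase of the osteoblast and osteocyte membrane, and its loss causes renal phosphate wasting with soft bones in mice and people. Spot brightness was 1687, 1391 and 1229 in LIPUS, against 558, 528 and 1012 in control. Control 3 was well above the other control arrays and still below every LIPUS array. The log2 levels were 1.06, 1.05 and 0.77 in LIPUS, against −0.64, −0.36 and 0.02 in control. Phex rose by 1.29 ± 0.20 (SE) in log2, 2.44-fold with a 95% interval of 1.78 to 3.33 (limma adjusted p = 0.00573). In the authors' value table, control 3 (−0.73) lay within the other controls (−0.48 and −0.81), and the rise was 1.63 ± 0.17 (adjusted p = 0.0140).

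Slc13a5 (NM_170668) encodes a sodium-coupled citrate transporter of the plasma membrane, and mice without it have defects of bone and tooth mineral. Its spots were at the scanner limit of 65535 on all 3 LIPUS arrays, with 67%, 72% and 78% of their pixels at that limit, against spot medians of 48611, 34346 and 46604 in control. The LIPUS level therefore has only a lower bound in the spot tables. With scaling to the 75th percentile the fitted rise of Slc13a5 was 1.82-fold (log2 0.86 ± 0.16, limma adjusted p = 0.0138), an estimate that the limit can only lower. The capped LIPUS levels differ among themselves only by the scaling. This SE, and every p of Slc13a5 in the spot tables, therefore measures no spread of the gene in LIPUS. The fitted rise also depends on the scaling: in log2 it was 0.76 with quantile normalization and 0.52 with spike-in scaling. The authors' value table reads the same arrays at lower values: with its log2 undone and each column's minimum set to 1, Slc13a5 read 16122, 13617 and 13361 in LIPUS and 13563, 9504 and 10636 in control. All 6 are far below the highest values of that table, which were 65495 to 65503. There its log2 values were 6.73, 6.79 and 6.68 in LIPUS and 6.03, 5.82 and 5.80 in control, a rise of 0.85 ± 0.15 or 1.80-fold (limma adjusted p = 0.0378). The groups were apart in the table's log2 values, but with the log undone control 1 exceeded LIPUS 3. The call in the spot tables ended without LIPUS 2 (adjusted p = 0.0645), LIPUS 3 (0.0519) or control 2 (0.0509).

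**Figure D2:**
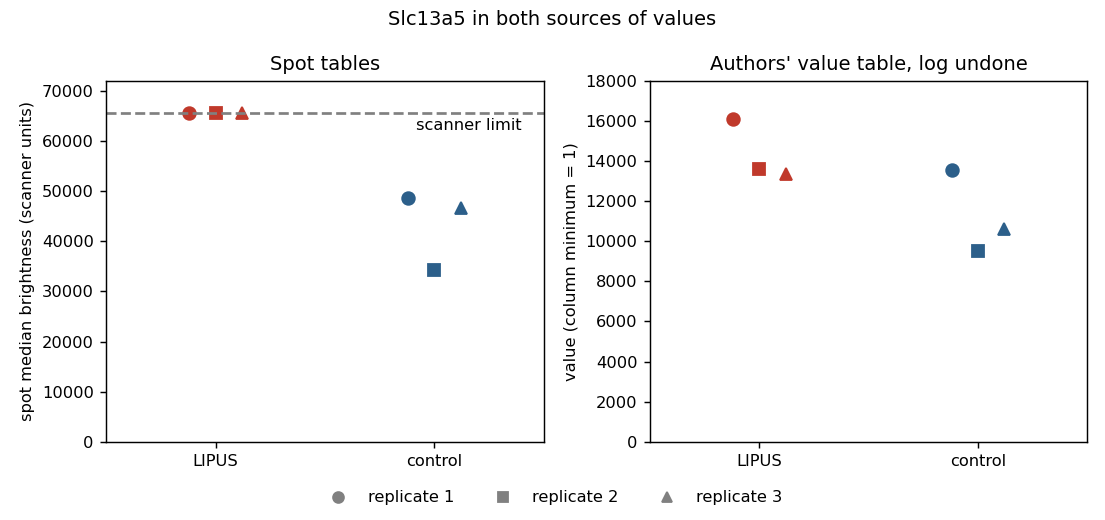
Slc13a5 on each array in the spot tables (left, median brightness in scanner units, dashed line at the scanner limit of 65535) and in the authors' value table with its log2 undone (right, column minimum set to 1). The 3 LIPUS spots sit on the limit in the spot tables and lie between 13361 and 16122 in the value table.

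Promoter sequence from RefSeq (build GRCr8) was at hand for 3 of the 8 genes, Slc13a5, Alpl and Ankh, as 250 bases before to 50 bases after the annotated start. The window of Slc13a5, the called gene among the 3, is shown beside that of Alpl, which did not pass. Capitals mark GC boxes (GGGCGG, either strand) and the CCAAT box (CCAAT, either strand); both windows read 5′ to 3′ on the strand of the gene, the minus strand. The Slc13a5 window is chr10:57388799-57389098 and the Alpl window is chr5:155289736-155290035.
Slc13a5: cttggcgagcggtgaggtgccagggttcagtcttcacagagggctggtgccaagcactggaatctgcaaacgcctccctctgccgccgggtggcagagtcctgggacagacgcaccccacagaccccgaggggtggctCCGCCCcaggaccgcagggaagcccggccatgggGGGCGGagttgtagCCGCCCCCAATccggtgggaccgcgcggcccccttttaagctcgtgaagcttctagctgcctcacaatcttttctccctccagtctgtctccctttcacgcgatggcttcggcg
Alpl: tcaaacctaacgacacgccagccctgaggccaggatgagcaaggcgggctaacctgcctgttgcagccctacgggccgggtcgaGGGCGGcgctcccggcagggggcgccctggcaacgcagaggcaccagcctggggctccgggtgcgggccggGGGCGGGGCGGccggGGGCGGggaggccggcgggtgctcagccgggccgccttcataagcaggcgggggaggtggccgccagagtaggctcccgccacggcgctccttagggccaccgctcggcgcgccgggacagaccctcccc
The Slc13a5 window holds 3 GC boxes and 1 CCAAT box, and the start it is built on lies inside the gene as annotated rather than at its outer end. The Alpl window holds 4 GC boxes, 2 of them overlapping each other, and the Ankh window 2 that overlap, with no CCAAT box in either. At least 1 GC box occurs in 33.1% and at least 1 CCAAT box in 37.5% of 33469 rat promoter windows of 300 bases. The core letters of a RUNX site (TGTGGT, either strand), present in 17.3% of windows, were in none of the 3. The same held for the TATA box (TATAAA, in 14.2% of windows), for the letters of an AP-1 site (TGANTCA, in 7.33%) and for those of a cAMP response element (TGACGTCA, in 1.83%), each sought on either strand. G and C make up 65.7% of the Slc13a5 window, 76.3% of the Alpl window and 78.3% of the Ankh window.

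Alpl (NM_013059) encodes tissue-nonspecific alkaline phosphatase, the enzyme that splits pyrophosphate into phosphate at the surface of osteoblasts and their matrix vesicles. Its spots were bright and nearly alike on all arrays, at 21263, 22630 and 23005 in LIPUS, against 23100, 18446 and 21405 in control. After scaling, the log2 levels were 4.67, 5.03 and 4.92 in LIPUS and 4.64, 4.62 and 4.36 in control, which leaves the groups only just apart. The change of 0.34 ± 0.17 did not pass (adjusted p = 0.290), with a 95% interval from 0.966-fold to 1.65-fold. Under scaling to spike-in controls the change was −0.002, with overlapping groups.

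Enpp1 (NM_053535) encodes the ectoenzyme that makes pyrophosphate from nucleotide triphosphates outside the cell. Its probe has 10 spots on each array, which shows the spread between spots. The mean log2 level of the 10 spots was 1.09, 1.05 and 1.07 in LIPUS, against 1.01, 0.98 and 0.61 in control. Within 1 array the SD between the 10 spots was 0.31 to 0.42 in LIPUS and 0.32 to 0.35 in control. Averaged over arrays, 9 of the 10 spot positions read higher in LIPUS, and the differences of all 10 ran from −0.17 to 0.59. The 10 spots share the sample and the scaling of their array, so they are not separate observations of LIPUS. Their differences move with the scaling: under spike-in scaling the change of the probe was −0.14, with overlapping groups. The change of 0.20 ± 0.17 did not pass (adjusted p = 0.528; 0.883-fold to 1.49-fold), and control 3 alone lay clearly below the other arrays.

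**Figure D3:**
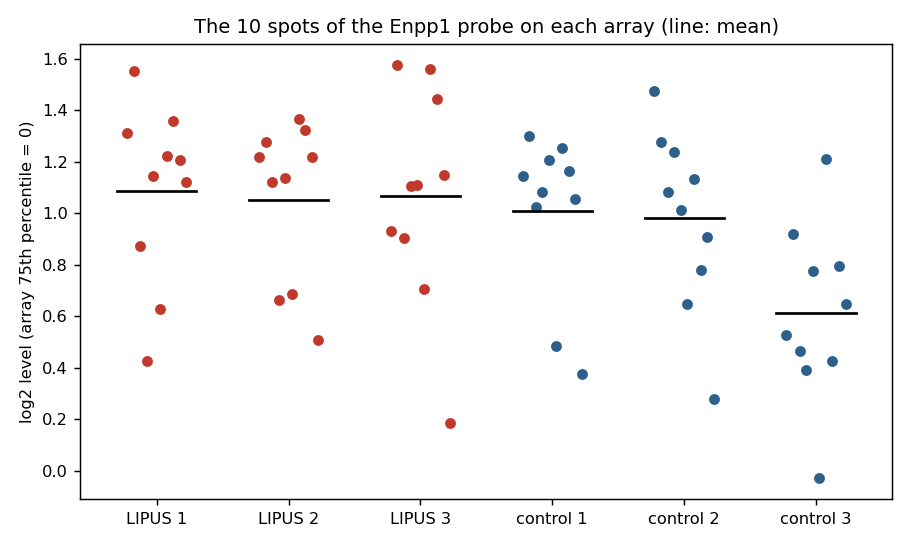
Log2 level of each of the 10 Enpp1 spots on the 3 LIPUS and 3 control arrays (75th percentile of the array at 0; black lines are the means of 10 spots). The means run from 1.05 to 1.09 in LIPUS and from 0.61 to 1.01 in control.

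Ankh (NM_053714) encodes a membrane protein that releases pyrophosphate, or ATP from which it is made, out of the cell. Its brighter probe read 0.29, 0.14 and 0.46 in LIPUS, against −0.10, −0.11 and 0.23 in control on the log2 scale. LIPUS 2 lay below control 3, so the groups overlapped. The change of 0.28 ± 0.17 did not pass (adjusted p = 0.379; 0.929-fold to 1.60-fold). A second, dimmer Ankh probe, above background on 5 of the 6 arrays, gave 0.16 ± 0.23.

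The phosphate transporters Slc20a1 (NM_031148) and Slc20a2 (NM_017223) bring phosphate into cells together with sodium. Slc20a1 read 1.74, 1.81 and 1.99 in LIPUS, against 1.35, 1.68 and 1.66 in control, a change of 0.29 ± 0.17 that did not pass (adjusted p = 0.362; 0.937-fold to 1.59-fold). Its second probe gave 0.28 ± 0.21, a change of like size, but with overlapping groups. Slc20a2 was dim, with spot brightness of 211, 167 and 143 in LIPUS, against 274, 154 and 277 in control, and on control 2 it was not above background. Its log2 levels of −1.56, −1.68 and −1.88 in LIPUS and −1.52, −1.86 and −1.57 in control overlapped. The change of −0.06 ± 0.17 did not pass (adjusted p = 0.873; 0.732-fold to 1.26-fold).

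Differences between 2 genes on the same array do not depend on a scaling that shifts every log2 value of an array by 1 constant. Over all 28 pairs of the 8 genes, this within-array difference separated LIPUS from control in 17 pairs. Every pair of a called and an uncalled gene was among them. The share over all pairs of tested genes was not computed, so the count has no baseline. Among single tested genes and probes, 27.2% had groups apart. Probes differ in how well they bind, so only the shift of such a difference between the groups can be read, not its level. The log2 reading of Smpd3 minus that of Alpl was 0.42 ± 0.18 in LIPUS and −0.63 ± 0.18 in control (SD, n = 3 each), a shift of 1.05. Phex minus Enpp1 was −0.11 ± 0.16 in LIPUS and −1.20 ± 0.54 in control, a shift of 1.09. Slc13a5, Smpd3 and Phex each shifted upward against all 5 other genes with no overlap between groups, by 0.52 to 1.45; the LIPUS readings of Slc13a5 are capped by the scanner limit. Smpd3 and Phex shifted against each other by 0.10, with overlap. For the separated pairs the exact permutation test, two-sided, gave p = 0.1, the smallest that 3 arrays against 3 allow, and 0.165 after Benjamini-Hochberg adjustment over the 28 pairs. Full separation always gives this p, so it adds nothing to the separation itself. The called genes were set against the others after their calls were known, so these shifts describe the same arrays and add no separate evidence.

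The size of each change depends on the scaling. Scaling to 4 spike-in probes in place of the 75th percentile lowered every change by 0.34, and the median over everything tested became −0.30. Under it Smpd3 (1.05, adjusted p = 0.00341) and Phex (0.95, 0.00729) passed, where 0.915% of everything tested was called higher, Slc13a5 (0.52, 0.112) did not, and Alpl, Enpp1, Ankh and Slc20a1 lay slightly below 0 (−0.002 to −0.14). Over the whole array 43.6% of calls were higher in LIPUS, against 32.3% with median centring and 5.72% with spike-in scaling. In the authors' value table the same 3 genes passed, where 3.68% of everything tested was called and 1.31% was called higher. All 8 changes in that table were above 0, Slc20a2 included (0.34 ± 0.19, adjusted p = 0.371).

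The tilt of the spot grid was 0.000712 to 0.00082 for the 3 LIPUS arrays and control 3, and 0.00126 and 0.00129 for control 1 and control 2. No label or header names a slide, and whether these tilt sets are slides or another batch was not tested. With the tilt set as a fixed block the comparison rests on control 3. Smpd3 then rose by 1.70 ± 0.20 (adjusted p = 0.0260), while Phex (0.94 ± 0.22, 0.101) and Slc13a5 (0.94 ± 0.20, 0.0873) did not pass, and 1.29% of everything tested was called. With the tilt set as a random block all 3 passed (adjusted p = 0.00356 for Smpd3, 0.0127 for Phex and 0.0213 for Slc13a5), where 1013 of 21847 tested were called. The mean of the LIPUS arrays minus control 3 was 0.52 for Alpl, 0.46 for Enpp1, 0.19 for Slc20a1, 0.06 for Ankh and −0.14 for Slc20a2, and none of these passed with the block.

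**Figure D4:**
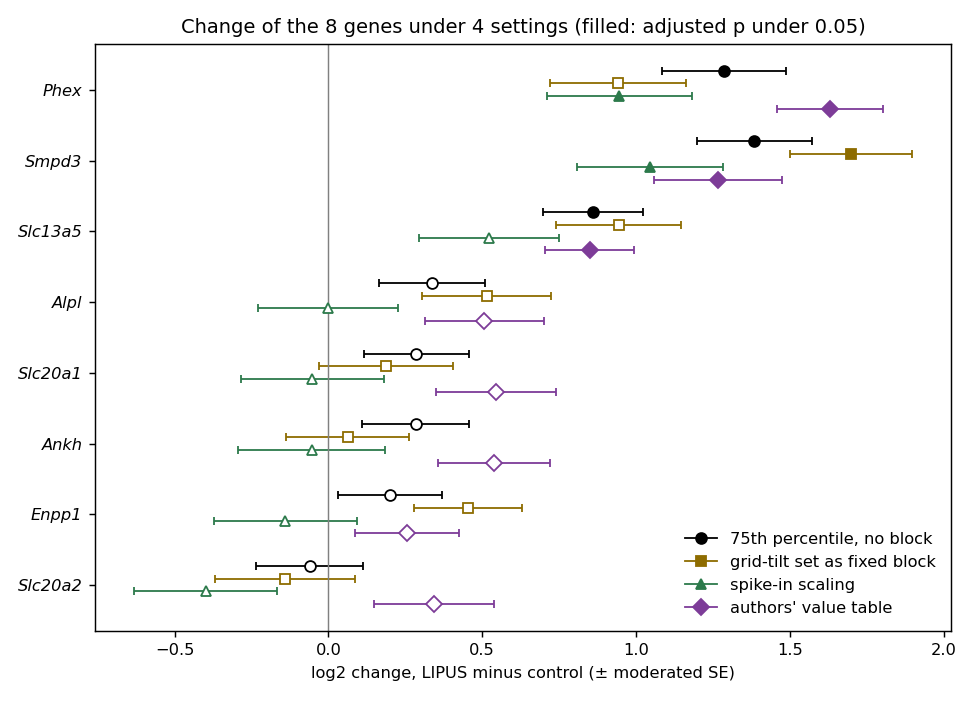
Log2 change of each gene, LIPUS minus control, with its moderated standard error, under 4 settings (horizontal axis in log2 units; filled symbols passed an adjusted p under 0.05). Smpd3 passes under all 4, Phex under 3 and Slc13a5 under 2 of them.

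The arrays also differ in markers of cell types. Beside the marker counts below, 2.89% of everything tested was called higher in LIPUS and 3.74% lower. Of 12 macrophage and monocyte markers, 10 were measured and 6 fell, and their mean log2 level was 3.92 to 4.13 on the LIPUS arrays against 4.77 to 4.84 on the control arrays, although 4 of the 10 were at the scanner limit on 3 or more arrays. Of 12 osteoblast and osteocyte markers, which include Alpl and Phex, 9 were measured and 3 rose (Dmp1, Mepe and Phex). The mean level of the 9 was 3.56 to 3.82 in LIPUS and 3.01 to 3.13 in control, and 3 of the 9 were at the scanner limit on 3 or more arrays. Phex is 1 of the 8 genes, so its own rise is part of that count and mean. Alpl, Ibsp, Sp7 and Pdpn did not pass, nor did the saturated Bglap and Col1a2. Sost was not above background. None of 3 measured osteoclast markers passed (1.73 to 2.05 in LIPUS, 1.55 to 1.90 in control), and Calcr, Ocstamp and Mmp9 were not above background. Of 2 measured endothelial markers Esam fell, with a mean level of −0.57 to −0.05 in LIPUS and 0.79 to 1.12 in control, and Pecam1 was not above background. The neutrophil list had 1 measured marker, S100a8, which rose by 0.99 ± 0.20 (adjusted p = 0.0209), while S100a9 and Cxcr2 were not above background. Of 4 measured adipocyte markers 1 rose, Cidec (1.09 ± 0.18, 0.00807), with a mean level of 3.52 to 3.61 in LIPUS and 3.14 to 3.34 in control, and 1 was at the scanner limit. None of 3 chondrocyte markers (median change 0.74) passed, nor did Epor, the 1 measured erythroid marker (0.19 ± 0.21, 0.631), and Hbb and Alas2 were not above background. In bulk RNA, fewer cells of a type and less RNA per cell cannot be told apart, and the part of these shifts in the changes of the 8 genes was not tested.

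Genes with related roles were read from the same fit, on lists that leave out the 8 genes. Of 148 listed genes 89 were measured, of which 10 rose and 5 fell, with a median change of 0.08. Beside these counts, and those of each list below, 2.89% of everything tested rose and 3.74% fell, with a median of 0.03. Among genes that handle pyrophosphate and nucleotides, 1 of 15 rose and 2 fell, with a median of −0.19. The riser was Panx3, a channel that lets ATP out of osteoblasts (1.88 ± 0.17, adjusted p = 0.000607). Entpd1, which breaks down extracellular ATP and ADP, fell by 1.14 ± 0.20 (0.0108), and Enpp5, a relative of Enpp1, fell by 0.98 ± 0.18 (0.0129). Enpp2, which makes lysophosphatidic acid, read 0.67 ± 0.18 and did not pass (0.0518).

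Of genes that regulate phosphate through hormones and their receptors, 4 of 12 rose and 0 fell, with a median of 0.27. The receptor of parathyroid hormone, Pth1r, rose by 0.98 ± 0.17 (adjusted p = 0.00967), and Fgfr1, a receptor for FGF23 signals, by 1.21 ± 0.22 (0.0114). Fgfr3 rose by 0.84 ± 0.22 (0.0472) and the vitamin D receptor Vdr by 0.72 ± 0.17 (0.0345). The hormone Fgf23 and its co-receptor Kl were not above background.

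Of proteins that bind mineral in the matrix, 3 of 9 rose and 1 fell, with a median of 0.53. Dmp1, a phosphoprotein of osteocytes that nucleates mineral, rose by 1.59 ± 0.15 (adjusted p = 0.000784), and Omd, a small matrix proteoglycan of bone, by 0.71 ± 0.18 (0.0429). Mepe, which carries a peptide that binds Phex, had saturated spots on each of the 3 LIPUS arrays. Its fitted rise was 1.73-fold with scaling to the 75th percentile (log2 0.79, adjusted p = 0.0259), and log2 0.45 with spike-in scaling. The limit can only lower these estimates, and the p measures no spread of Mepe in LIPUS. Mgp, an inhibitor of calcification, fell by 1.35 ± 0.17 (0.00189). Spp1, Bglap and Sparc were at the limit on all 6 arrays and give no estimate in the spot tables, so they could not pass there although they are counted among the 9. Without saturated probes the median was 0.70. In the authors' value table Mepe rose by 2.89 ± 0.17 (adjusted p = 0.00902), Spp1, a phosphoprotein of bone matrix, by 2.07 ± 0.14 (0.0103) and Bglap, the osteoblast protein osteocalcin, by 1.97 ± 0.20 (0.0135), while Sparc read 0.48 ± 0.16 and did not pass (0.174). The highest values of Mepe, Bglap and Sparc lie close to the top of that table, which may cap them too. That of Spp1 was 63381 with the log undone, where the columns reach 65495 to 65503, and whether it is capped was not tested.

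Sphingolipid genes, the setting of Smpd3, had 2 risers and 1 faller of 15, with a median of 0.08. Sgms2, which rebuilds sphingomyelin and whose human mutations cause fragile bones, rose by 1.42 ± 0.16 (adjusted p = 0.00128), and the lysosomal sphingomyelinase Smpd1 by 0.68 ± 0.15 (0.0268). The ceramide synthase Cers1 fell by 0.98 ± 0.17 (0.00866). Acid ceramidase, Asah1, read −0.66 ± 0.17 and did not pass (0.0544).

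Of 13 measured genes of citrate handling, 0 rose and 1 fell, with a median of −0.10. That gene was Slc13a3, the dicarboxylate transporter related to Slc13a5, which fell by 1.38 ± 0.19 (adjusted p = 0.00298), opposite in direction to Slc13a5. Its log2 levels were 2.33, 1.81 and 2.28 in LIPUS, against 3.55, 3.62 and 3.38 in control, with no overlap. The mitochondrial citrate exporter Slc25a1 (0.48 ± 0.17, 0.126) did not pass.

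None of 12 matrix vesicle genes (median 0.45), 3 other phosphate transport genes (−0.11, or −0.32 without Slc25a3, which was at the scanner limit on all 6 arrays) or 10 genes of membrane anchoring and zinc supply for alkaline phosphatase (0.15) passed. The smallest p-values in these lists were those of Mmp14, a membrane protease (0.52 ± 0.15, adjusted p = 0.0732), Slc37a4, a glucose 6-phosphate carrier (−0.53 ± 0.17, 0.107), and Pgap2 (−0.54 ± 0.17, 0.0957), which remodels membrane anchors. The sodium-phosphate transporters Slc34a1, Slc34a2 and Slc34a3 were not above background.

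Of the 15 called genes in these lists, 8 kept their call whichever array was left out, and 4 (Panx3, Dmp1, Mgp and Sgms2) with the tilt set as a fixed block. Enpp5 (adjusted p up to 0.0581) and Fgfr1 (0.0543) lost theirs without LIPUS 2 or control 1. Vdr (0.126), Fgfr3 (0.138) and Smpd1 (0.0952) lost theirs without any array except control 3, Mepe (0.103) without control 1 or any LIPUS array, and Omd (0.135) without any 1 array. In the authors' value table Panx3, Dmp1, Mgp, Mepe, Pth1r and Smpd1 also passed. The other called genes did not pass there, with limma adjusted p from 0.0522 for Omd and 0.0562 for Sgms2 to 0.304 for Vdr.

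**Figure D5:**
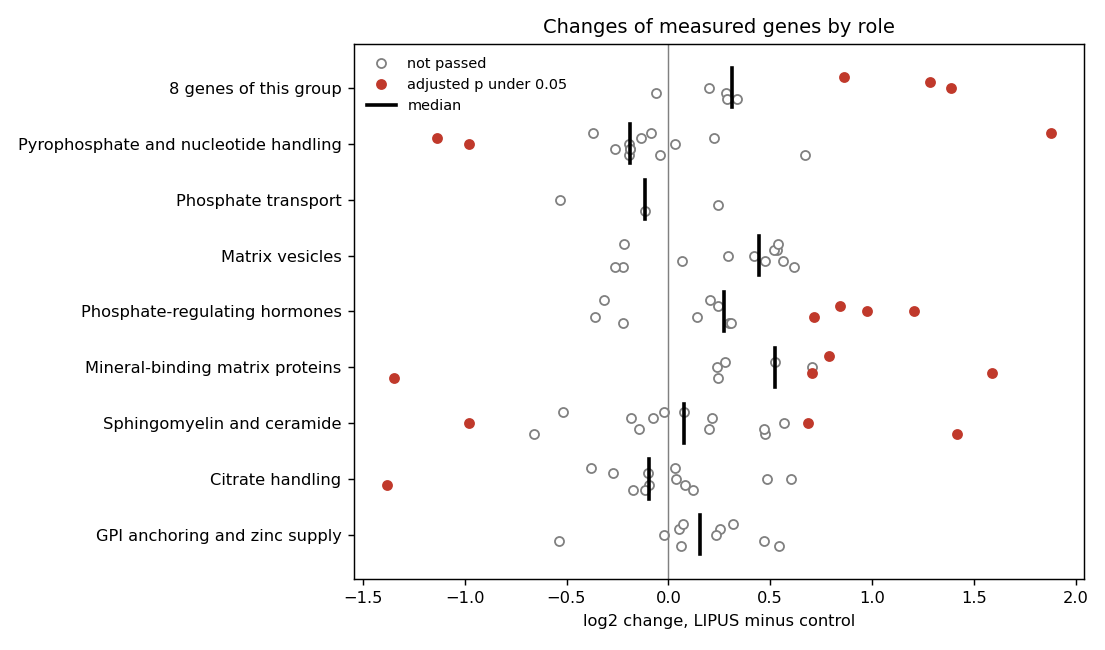
Log2 change, LIPUS minus control, of every measured gene by role, with the 8 genes on top (red points passed an adjusted p under 0.05, black bars are medians). Panx3 (1.88), Dmp1 (1.59) and Sgms2 (1.42) lie farthest right among the related genes, and Slc13a3 (−1.38) and Mgp (−1.35) farthest left.

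The genes whose levels tracked Phex and Smpd3 most closely over the 6 arrays were sought among 5694 other genes with a symbol. For Phex they were Fzd2, a Wnt receptor (Pearson r = 0.997), Sec22a (0.996) and Chrna7 (0.996). For Smpd3 they were Cav3 (0.996), Calm2 (0.996) and Foxq1 (0.995). None are given for Slc13a5, whose LIPUS levels differ among themselves only by the scaling of the capped spots. These values describe 6 arrays that fall into 2 groups and share the step between them, so they carry no p. Among the 8 genes themselves, Smpd3 and Phex correlated at 0.851 over these arrays, and Smpd3 and the uncalled Alpl at 0.84. Pairs of uncalled genes ranged widely, with 0.774 for Ankh and Slc20a1, 0.0123 for Enpp1 and Ankh, and −0.667 for Slc20a1 and Slc20a2.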

How the data were processed

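The deposited spot tables hold, per the file headers, spot and background intensity as scanned, the share of saturated pixels in percent, and spot position and flag as a score, for 45220 spots per array. Scanner, gain and software are not stated in the labels or headers. The table of processed values that the authors deposited is on a log2 scale, judged by its numbers: each column has its 75th percentile at 0 and its median between −2.85 and −2.37, and with the log undone 98.7% to 98.9% of values are whole within 0.01. Its background treatment and software are unknown.

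Spot medians were corrected with limma's normexp (offset 50), put on the log2 scale, averaged per probe, and scaled to each array's 75th percentile. The plan named this correction and scaling, or the scanner software's processed signal where present, which these tables lack. A spot was above background when its median minus background exceeded the 95th percentile of 153 negative control spots of its array. Probes above it on at least 3 of 6 arrays (23260 of 41012) were kept, and the brightest probe stood for a gene. Between 53.5% and 61.9% of probes were above background and 320 to 468 at the limit per array. The number of arrays limits precision. Symbols came from RefSeq (GRCr8), used for names, and for promoters.

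LIPUS and control were compared with limma 3.58.1 (R 4.3.3, with jsonlite 2.0.0), two-sided, with Benjamini-Hochberg adjustment over 21847 tests. The procedure was tested on simulated data with independent noise for each gene and array. Those data hold no effect of tilt set or saturation, so that test does not cover them. Plots used matplotlib 3.10.9 in Python 3.11.15. Genes named beside the 8 are, by rule, among the 4 with the smallest unadjusted p in their list, the 3 most alike to each called gene (not given for the capped Slc13a5), or, chosen after their values were seen, marker genes and list genes named as saturated or not above background. Members, lists and rules were chosen with earlier results of these data known. Same-numbered LIPUS and control arrays deviated from their group means without correlation (r = 0.00107, 0.00948 and −0.0124), so no effect shared by number was seen. That cannot tell whether same-numbered samples were paired, which the labels do not state. Alternatives were background correction, scaling, probe filter, probe choice, saturation, value source, tilt set, replicate block and each array left out.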

Additional observations from a re-analysis of the deposited data

How the results depend on the processing

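Smpd3 and Phex kept their direction under all 22 alternatives and Slc13a5 under the 21 that give it a value; the 5 other genes passed under none. Slc13a5 lost its call with spike-in scaling (0.52, adjusted p = 0.112), without the filter on dim probes (0.86, 0.0511) and with the tilt set as a fixed block (0.94, 0.0873), and leaving out single arrays gave 0.79 to 0.93. Phex lost its call with the tilt set as a fixed block (0.94, 0.101). With that block 1 of the 8 was called. Within the tilt set of control 3, an alternative chosen after seeing the data, limma called 0 genes (3339 at an unadjusted p under 0.05), with Smpd3 at 1.70 (0.0803), Phex at 0.94 (0.151) and Slc13a5 at 0.94 (0.142); 3 of the 8 had an unadjusted p under 0.05, and its single control is assumed to vary like the LIPUS arrays. Calls over the whole array numbered 1449, against 612 with background subtracted, 3494 with spike-in scaling, 655 without the filter, 805 in the value table and 282 with the tilt block, and 642 to 2168 with single arrays left out (2168 without control 3). The 10 risers in the related lists numbered 4 with background subtracted, 4 with spike-in scaling, 5 without the filter, 3 with the tilt block, 6 with the replicate block, 0 within the set, and 4 to 13 with single arrays left out. The 5 fallers numbered 3 with background subtracted, 12 with spike-in scaling, 1 in the value table, 1 with the tilt block, 0 within the set, and 4 to 6 with single arrays left out. The cause of these differences was not tested. The replicate block changed no call among the 8 (Slc13a5 adjusted p = 0.0317) and gave 1175 calls over the array. List medians turned sign under spike-in scaling for hormones (−0.07), sphingolipids (−0.26; also without control 1) and membrane anchoring (−0.19), and under 5 alternatives for citrate handling (up to 0.03) and 2 for phosphate transport (up to 0.14). Dim signal limits Slc20a2 and the second Ankh probe, and saturation limits Slc13a5.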
